A study of Mus musculus with 6 samples.

Results

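The cadherins and protocadherins measured here were the genes whose symbol is Cdh with a number or begins with Pcdh, without Cdh5, and they were found as 99 probe sets of 55 genes among the 45101 probe sets of the arrays. Dorsal root ganglia (DRG), which hold the cell bodies of peripheral sensory neurons with their satellite glia and Schwann cells, were set against spinal cord (SC). Both tissues came from the lumbar levels of male C57BL/6J mice aged 3 months. Each tissue had 3 independent arrays, and each array carried labelled material from 4 mice, so differences between single animals were not measured. The labels name no treatment and no allele beyond the strain, and both groups are whole tissues, in which fewer cells of a type and less RNA per cell cannot be told apart.

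Cadherins are calcium-dependent adhesion molecules whose extracellular repeats bind cadherins on the next cell. Classical cadherins, of type I and type II, bind catenins on the inside, which tie them to actin. The non-clustered protocadherins of the delta groups and the clustered alpha, beta and gamma protocadherins act mainly in neurons, where their combinations serve cell recognition, axon sorting and synapse specificity.

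The tissues carried their defining markers. Of 7 measured sensory neuron markers, 7 were higher in DRG, among them P2rx3 and Avil, and 5 of them were not above the level of unexpressed genes in SC. Of 8 astrocyte and 8 oligodendrocyte markers, all were higher in SC, among them Gfap and Olig1, and 4 of each list were not above that level in DRG. That level is the 95th percentile of the signals of 61 probe sets of 43 genes of organs not sampled, such as liver, testis and pancreas, and it lay between 132 and 164 on the 6 arrays. Signals are array brightness on a linear scale after the authors' array scaling, and a signal of a gene is set only against the same probe set in the other tissue.

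On the deposited scaling, the family's calls lay mostly toward SC, while those of all probe sets lay mostly toward DRG, and before the array scaling those of all probe sets also lay mostly toward SC. A probe set was called when limma's adjusted p was under 0.05 over the 45026 probe sets tested. Of the 99 probe sets, 10 were called higher in DRG (10.1%), where 22.7% of all probe sets were, and 29 were called higher in SC (29.3%), where 9.79% of all probe sets were. In either direction 39 were called (39.4%), and 32.4% of all probe sets. With a log2 difference of at least 1, calls were made for 7 members of the 99 toward DRG and 15 toward SC, against 8.46% and 4.79% of all probe sets. By gene, taking the probe set with the highest mean log2 signal, 9 of 55 had a call toward DRG (16.4%) and 15 toward SC (27.3%), against 31.8% and 9.7% of all genes, or 41.5% in either direction. The arrays of the tissues did not overlap for 56 of the 99 probe sets (56.6%), and for 43.6% of all probe sets. The median log2 difference, DRG minus SC, was -0.28 over the members and 0.08 over all probe sets, and by gene it was -0.05 over the members and 0.18 over all genes. By probe set it was -0.33 and 0.01 after quantile normalization, and -0.55 and -0.18 on signals before the authors' array scaling. Those signals, also called signals without the array scaling, were not unscaled. Their mean without the extreme values was already 247.5 to 247.7 on every array. All 15 genes called higher in SC were called in that direction on all 3 scalings, and so were 7 of the 9 called higher in DRG. The exceptions were Pcdh18 and Cdh4. Over all genes, 17.4% and 9.49% were called toward DRG and SC on all 3 scalings. By probe set the members' counts on all 3 scalings were 8 toward DRG (8.08%) and 28 toward SC (28.3%), against 12.1% and 9.49% of all probe sets. Quantile normalization alone gave 8 and 32 members, where 14.9% and 14.4% of all probe sets were called, and signals before the array scaling gave 8 and 42, where 13.4% and 19.9% were.

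**Figure D1:**
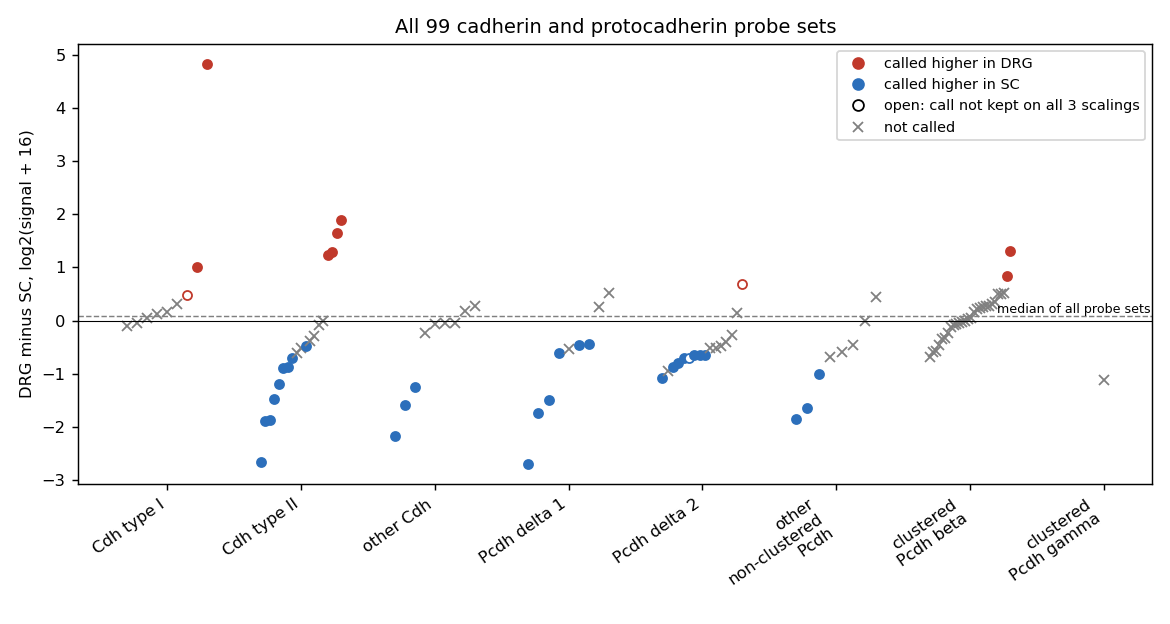
The log2 difference DRG minus SC of each of the 99 probe sets (vertical axis, log2 of signal + 16), by subfamily (horizontal axis, sorted within each). Red and blue points were called higher in DRG or SC, open points lost the call on at least 1 other scaling, crosses were not called, and the dashed line is the median of all probe sets, 0.08. Called toward SC were 9 of 19 type II cadherin, 6 of 9 delta 1 and 8 of 16 delta 2 protocadherin probe sets. Over all probe sets, 9.79% were called toward SC and 32.4% in either direction. Of the 28 beta protocadherin probe sets, 26 were not called.

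Type I cadherins, the classical cadherins of strong adherens junctions, held the largest difference of the family. On the deposited scaling, 3 of their 5 genes were called higher in DRG and 0 in SC, against 31.8% and 9.7% of all genes. Cdh1, which encodes E-cadherin, had signals of 1887, 1872 and 2130 in DRG, against 67.1, 35.1 and 62.3 in SC. All 3 DRG arrays were far above the 3 SC arrays, and no SC array was above the level of unexpressed genes. Cdh1 was at least 13.3-fold higher in DRG, with a log2 difference of 4.83 ± 0.17 (SE, limma adjusted p = 7.88e-08). In peripheral nerve, E-cadherin is known from junctions that a myelinating Schwann cell makes with itself. Schwann and satellite glia markers mostly moved the same way. Calls toward DRG were made for 5 of 7 measured and toward SC for 1, against 31.8% and 9.7% of all genes. Sox10, not called on the deposited scaling, was called toward SC after quantile normalization (-0.52, limma adjusted p = 0.00286). It was also called toward SC before the array scaling (-0.37, limma adjusted p = 0.0153). The list's summed signal was 23279 to 24382 in DRG, against 7019 to 7692 in SC. In SC, 2 of the 7 were not above the level of unexpressed genes, and the part of this list in the result was not tested. Of 8 epithelial and ependymal markers, 0 had calls toward DRG and 2 toward SC, against 31.8% and 9.7% of all genes. Their summed signal was 680 to 1778 in DRG and 1002 to 1987 in SC. Much of that spread came from Epcam, at 105, 1146 and 429 in DRG and 1167, 209 and 265 in SC. Not above the level of unexpressed genes were 6 of the 8 in DRG and 4 in SC. Other lists also moved with Cdh1. Of 7 sensory neuron markers, 7 had calls toward DRG and 0 toward SC. Of 10 fibroblast, meningeal and perineurial markers, 7 had calls toward DRG and 1 toward SC. The median log2 difference was 5.09 and 2.34 in these lists, against 1.34 for the Schwann and satellite glia markers. The part of the epithelial list and of these lists in the result was not tested.

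Cdh15, which encodes M-cadherin, best known from skeletal muscle, had signals of 163, 209 and 188 in DRG, against 70.7, 99.7 and 84.1 in SC. The arrays did not overlap, and no SC array was above the level of unexpressed genes. Cdh15 was at least 1.26-fold higher in DRG, with a log2 difference of 1.01 ± 0.18 (SE, limma adjusted p = 0.00185). Of 8 muscle markers, 0 were called by limma in either direction on the deposited scaling, against 41.5% of all genes. For 1, Myh1, the unadjusted p of limma was under 0.05. Myh1 was called toward SC before the array scaling (limma adjusted p = 0.043). The summed signal of the 8 was 517 to 1666 in DRG and 508 to 2105 in SC. Some varied widely between arrays of a tissue, such as Acta1 at 126, 192 and 558 in DRG and 163, 667 and 875 in SC. Not above the level of unexpressed genes were 3 of the 8 in DRG and 4 in SC. Cdh4, which encodes R-cadherin of retina and brain, had signals of 221, 243 and 212 in DRG, against 143, 155 and 174 in SC. Its difference was 0.48 ± 0.13 (SE, limma adjusted p = 0.0186) on the deposited scaling, but 0.36 after quantile normalization (limma adjusted p = 0.086) and 0.14 before the array scaling (0.489). The other 2 probe sets of Cdh4 were not called.

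Cdh2, which encodes N-cadherin, the classical cadherin of neurons and of many glia, showed no call on the deposited scaling. It had signals of 987, 844 and 1004 in DRG, against 763, 918 and 924 in SC, and the arrays overlapped. The difference was 0.12 ± 0.10 (SE, limma adjusted p = 0.437), and it turned to -0.37 after quantile normalization (limma adjusted p = 0.0174) and to -0.24 before the array scaling (0.0795). The other probe set of Cdh2 differed by -0.04 (limma adjusted p = 0.817) on the deposited scaling and was called toward SC on both others, at -0.42 (limma adjusted p = 0.00734) and -0.40 (0.0097). No call toward DRG was made for Cdh2 on any of the 3 scalings. Cdh3, which encodes P-cadherin, was not above the level of unexpressed genes on any array, and neither of its 2 probe sets was called.

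Type II cadherins, which pattern neuronal groups and their connections, had calls in both directions. Among 10 genes, 3 stood higher in DRG, where 31.8% of all genes did, while 6 stood higher in SC, where 9.7% of all genes did. The share toward DRG is near that of all genes. Each of these 9 kept its call on all 3 scalings. Cdh18 was not called and was not above the level of unexpressed genes on any array. By probe set, 4 of 19 had calls toward DRG and 9 toward SC, against 22.7% and 9.79% of all probe sets. The median difference over the 19 was -0.52.

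Toward DRG, Cdh11 had signals of 1847, 2021 and 2017 in DRG, against 475, 561 and 514 in SC. The tissues were well apart, and Cdh11 was above the level of unexpressed genes on every array. It was 3.80-fold higher in DRG, with a log2 difference of 1.89 ± 0.08 (SE, limma adjusted p = 2.28e-07), and its other probe set was called the same way at 1.66. Cdh11 is known from mesenchymal cells such as fibroblasts and bone-forming cells. Fibroblast, meningeal and perineurial markers mostly moved with it. Calls toward DRG were made for 7 of 10 and toward SC for 1, against 31.8% and 9.7% of all genes. Calls toward SC were 3 with quantile normalization and 2 without the array scaling. Their summed signal was 20872 to 22134 in DRG, against 9020 to 10825 in SC. In SC, 3 of the 10 were not above the level of unexpressed genes, and their part in the result was not tested.

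Cdh19, a cadherin of the Schwann cell lineage, had signals of 799, 743 and 762 in DRG, against 354, 303 and 299 in SC. Every DRG array was above every SC array, and SC stood above the level of unexpressed genes as well. It was 2.42-fold higher in DRG, with a log2 difference of 1.23 ± 0.09 (SE, limma adjusted p = 6.25e-06). Cdh9, a cadherin of defined neuron types that is known from hippocampal synapses, had signals of 213, 174 and 163 in DRG, against 78.1, 50.5 and 68.0 in SC. No SC array was above the level of unexpressed genes. Cdh9 was at least 1.24-fold higher in DRG, with a log2 difference of 1.30 ± 0.20 (SE, limma adjusted p = 0.000791).

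Toward SC, Cdh22 had signals of 57.8, 44.9 and 79.9 in DRG, against 455, 437 and 492 in SC. No DRG array was above the level of unexpressed genes, and all SC arrays were. Cdh22 was at least 3.30-fold higher in SC, with a log2 difference of -2.66 ± 0.18 (SE, limma adjusted p = 3.40e-06). Cdh20 followed the same pattern, with signals of 75.8, 106 and 106 in DRG, against 289, 288 and 304 in SC. It was at least 2.10-fold higher in SC (log2 difference -1.48, limma adjusted p = 5.80e-05).

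Cdh7 was also under the level of unexpressed genes in DRG, with signals of 60.9, 43.1 and 70.0 there, against 161, 158 and 139 in SC. Its difference was -1.20 ± 0.21 (SE, limma adjusted p = 0.0016), at least 1.09-fold, with 2 of 3 SC arrays above the level. All 3 of its probe sets were called higher in SC, from -1.89 to -1.20. Those at -1.89 and -1.88 were not above the level on any array. Cdh8, which in mouse is known from synapses between cold-sensing afferents and dorsal horn neurons, had signals of 98.5, 43.2 and 67.3 in DRG, against 143, 121 and 148 in SC. Only 1 SC array was above the level of unexpressed genes, and no fold is given. The other 2 probe sets of Cdh8 were not called, at -0.38 and -0.61 (limma adjusted p = 0.31 and 0.117). The call of Cdh8 at -0.89 (limma adjusted p = 0.0257) was lost with the logarithm of the deposited ratio (0.0564) and without DRG replicate 2, DRG replicate 3, SC replicate 1, SC replicate 2 or SC replicate 3 (0.0554, 0.0596, 0.0808, 0.0502 and 0.0877).

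Cdh10 was measured in both tissues, with signals of 222, 252 and 209 in DRG, against 369, 425 and 356 in SC. It was 1.69-fold higher in SC (log2 difference -0.71, limma adjusted p = 0.000921), and of its 4 probe sets 2 were called, both higher in SC. Cdh6, known as K-cadherin from kidney, had signals of 176, 157 and 137 in DRG, against 196, 222 and 256 in SC. The arrays did not overlap, and the difference was -0.48 ± 0.15 (SE, limma adjusted p = 0.036), while the other probe set was not called.

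**Figure D2:**
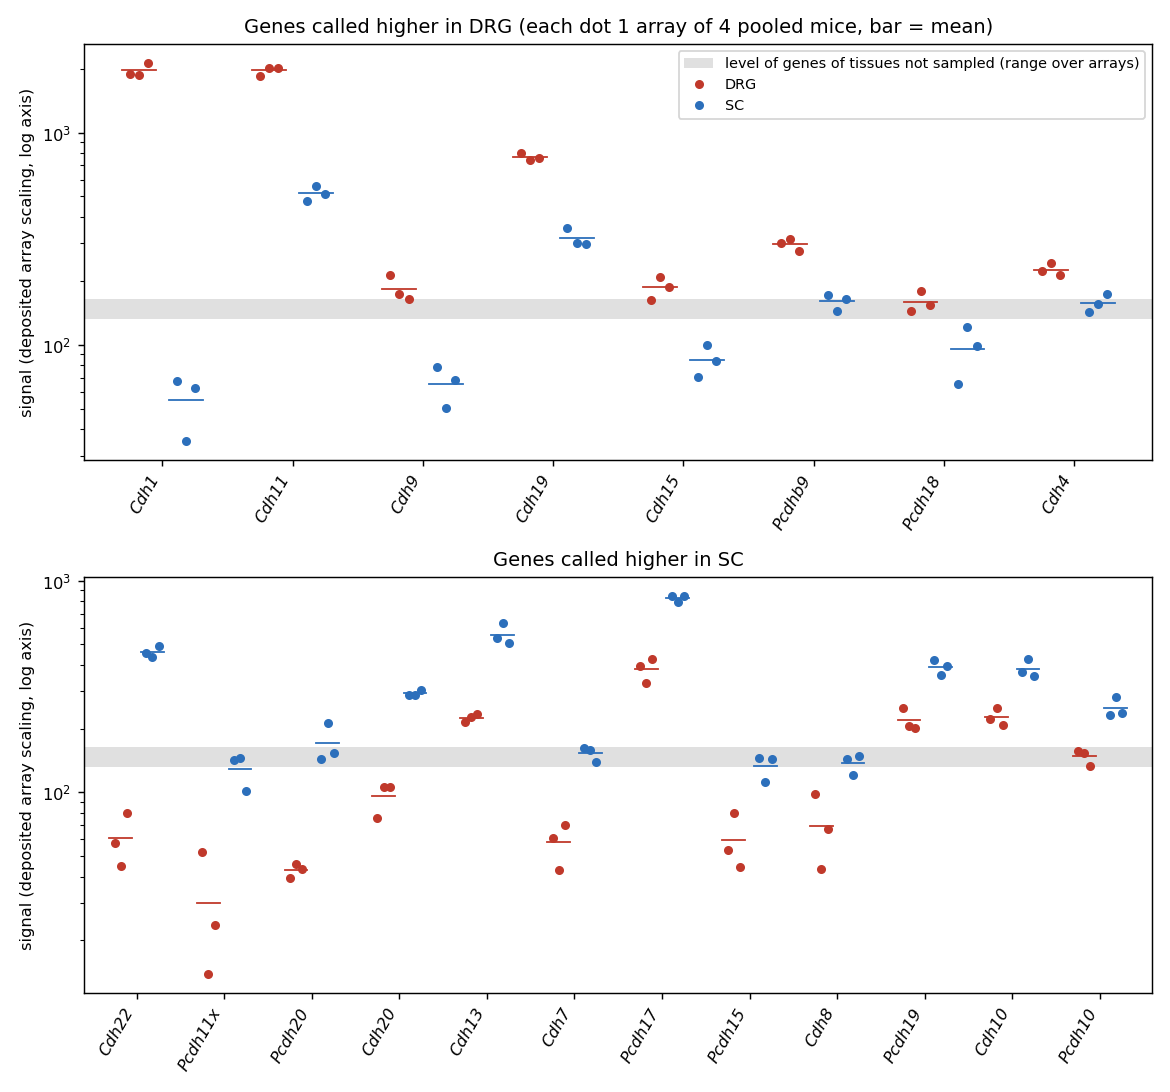
Signal on each array (vertical log axis, array brightness after the authors' scaling) of the called genes with the largest differences toward DRG (upper panel) and toward SC (lower panel), DRG in red and SC in blue, with bars at the means of 3 arrays. The grey band is the level of unexpressed genes, 132 to 164 over the 6 arrays. Cdh1 stood at 1872 to 2130 in DRG and at 35.1 to 67.1 in SC, and Cdh22 stood below the band in DRG.

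Among the other cadherins, Cdh13 alone was called. Cdh13 encodes T-cadherin, which has no intracellular part, is held in the membrane by a lipid anchor and binds adiponectin. It had signals of 214, 226 and 235 in DRG, against 536, 628 and 506 in SC, and the tissues did not overlap. Cdh13 was 2.47-fold higher in SC, with a log2 difference of -1.24 ± 0.11 (SE, limma adjusted p = 1.54e-05). Of its 4 probe sets, 3 were called higher in SC, from -2.17 to -1.24. T-cadherin is also known from vessels. Of 9 endothelial and mural markers, 2 had calls toward DRG and 3 toward SC, against 31.8% and 9.7% of all genes. Their summed signal was 4155 to 4667 in DRG and 3720 to 4012 in SC, and their part in the result was not tested. Cdh16 of kidney, Cdh17 of intestine, Cdh23 of the hair cell tip link and Cdh26 were not called, and each stayed under the level of unexpressed genes on all arrays.

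Calls among the non-clustered protocadherins lay nearly all toward SC. Of 12 genes, 1 was higher in DRG, against 31.8% of all genes, and 8 were higher in SC, against 9.7% of all genes, while 3 were not called. The 8 kept their call on all 3 scalings, as 9.49% of all genes did toward SC. By probe set the split was 1 of 33 toward DRG and 17 toward SC, against 22.7% and 9.79% of all probe sets. The median log2 difference over the 33 was -0.61, against -0.76 with quantile normalization and -0.89 without the array scaling.

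Of the delta 1 group, Pcdh9 was measured on every array, with signals of 1535, 1130 and 1188 in DRG, against 2142, 1887 and 1835 in SC. It was 1.53-fold higher in SC (log2 difference -0.61, limma adjusted p = 0.00296). All 3 probe sets of Pcdh9 were called higher in SC, but they differed in size, at -0.45, -0.61 and -1.50. Pcdh7 had signals of 707, 515 and 659 in DRG, against 903, 876 and 822 in SC, and was 1.39-fold higher in SC (log2 difference -0.47, limma adjusted p = 0.0111). The other 2 probe sets of Pcdh7 were not called.

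Pcdh11x, an X-linked protocadherin of brain, had signals of 52.1, 13.8 and 23.6 in DRG, against 141, 145 and 102 in SC. It was under the level of unexpressed genes in DRG and above it on 2 SC arrays, but its mean in SC did not exceed that level, so no fold is given. Both of its probe sets were called higher in SC, at -1.74 (limma adjusted p = 0.00267) and -2.70 (6.52e-05). Pcdh1, which is known from airway epithelium, was not called, with a difference of 0.51 (limma adjusted p = 0.113), and stayed under the level of unexpressed genes on all 6 arrays.

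Of the delta 2 group, Pcdh17, which in mouse is known from synapses of cortex and basal ganglia, had signals of 394, 329 and 427 in DRG, against 847, 795 and 846 in SC. The tissues were well apart and above the level of unexpressed genes on all arrays. Pcdh17 was 2.17-fold higher in SC, with a log2 difference of -1.09 ± 0.10 (SE, limma adjusted p = 2.94e-05), and its other probe set was called at -0.66. Pcdh19, whose human gene is mutated in an X-linked epilepsy, had signals of 251, 207 and 201 in DRG, against 420, 360 and 393 in SC. All 3 of its probe sets were called higher in SC, from -0.88 to -0.66, and the fold was 1.79.

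Pcdh10, which acts on actin through the WAVE complex, had signals of 157, 154 and 133 in DRG, against 232, 282 and 238 in SC. It was 1.69-fold higher in SC (log2 difference -0.70, limma adjusted p = 0.00287), with 2 of 3 DRG arrays above the level of unexpressed genes. Of its 6 probe sets 3 were called, all higher in SC, and the dimmest of these was not above that level on any array. Pcdh8, an activity-induced protein that in rat removes N-cadherin from synapses, was not called at -0.47 (limma adjusted p = 0.0891), although quantile normalization gave a call toward SC (-0.65, limma adjusted p = 0.0187), as did signals before the array scaling (-0.82, limma adjusted p = 0.0055). Pcdh18 was the exception of this group, with signals of 144, 179 and 154 in DRG, against 65.1, 121 and 98.7 in SC. Its call at 0.69 (limma adjusted p = 0.0393) was lost with quantile normalization (0.0627) and without the array scaling (0.268), and its other 2 probe sets were not called. The mean of its 3 probe sets differed by 0.14 (limma adjusted p = 0.634). Leaving out any single array other than SC replicate 2 also ended the call of Pcdh18, with limma adjusted p between 0.063 and 0.115.

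Pcdh15 and Pcdh20 belong to no delta group. Pcdh15, the partner of Cdh23 in the hair cell tip link, had signals of 53.6, 80.1 and 44.6 in DRG, against 145, 112 and 144 in SC, and the difference was -1.01 ± 0.24 (SE, limma adjusted p = 0.00884). Only 1 SC array was above the level of unexpressed genes, no fold is given, and its other 2 probe sets were not called. Pcdh20 had signals of 39.3, 46.1 and 43.2 in DRG, against 144, 213 and 153 in SC. It was at least 1.20-fold higher in SC (log2 difference -1.65, limma adjusted p = 0.00026), with 2 of 3 SC arrays above the level. Both probe sets of Pcdh20 were called, but the dimmer, at -1.86, was not above the level on any array. Pcdh12, known from endothelium, was not called on any of its 3 probe sets.

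Markers of the cell types of the cord moved with the genes that were higher in SC. The summed signal of 8 astrocyte markers was 1189 to 1334 in DRG and 21463 to 23716 in SC. That of 8 oligodendrocyte markers was 1954 to 2194 in DRG and 16805 to 18784 in SC. That of 10 spinal neuron markers was 3830 to 4142 in DRG and 14162 to 14828 in SC, with 8 higher in SC and 1 in DRG and 9 not above the level of unexpressed genes in DRG. The part of these lists in the differences of single cadherins was not tested.

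**Figure D3:**
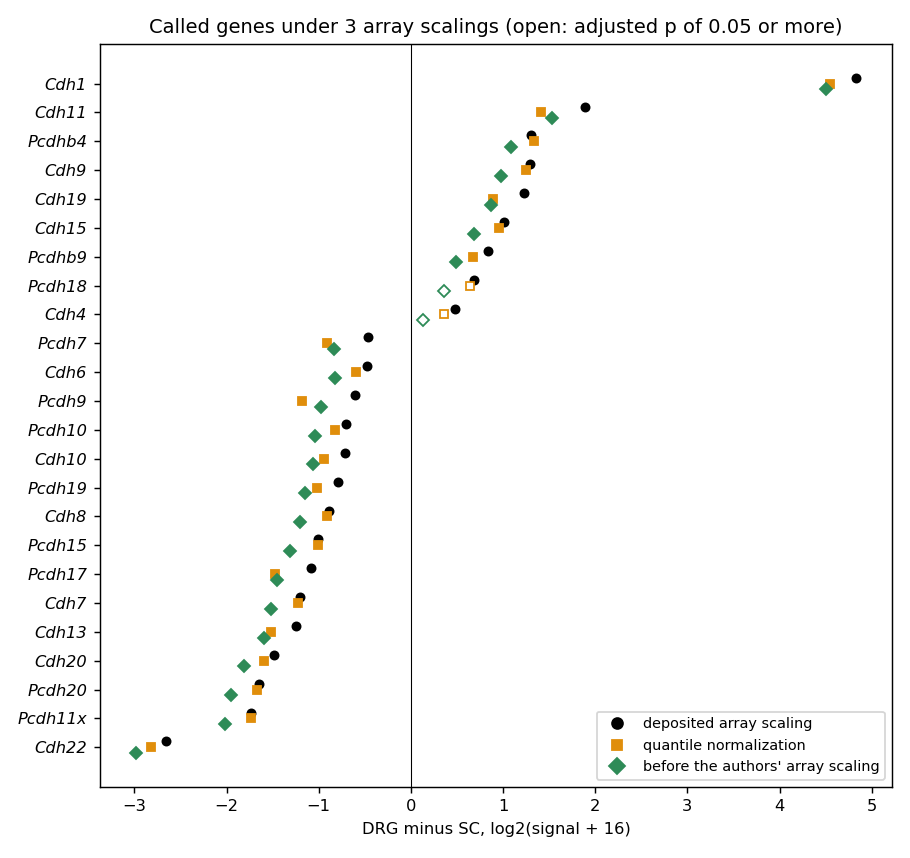
The log2 difference DRG minus SC (horizontal axis) of the 24 called genes (vertical axis) under 3 array scalings: as deposited (black circles), quantile-normalized (orange squares) and before the authors' array scaling (green diamonds). Open symbols have an adjusted p of 0.05 or more. The points of every gene stay on the same side of 0, and the calls of Pcdh18 and Cdh4 are the ones lost.

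The sequence around the start of transcription is shown for the pair of genes with the largest difference in each direction that have an entry in the promoter table, so that promoters of genes with opposite patterns stand side by side. The sequences are from RefSeq on mouse build GRCm38.p6 and run 5' to 3' on the gene's strand, from 250 bases before to 50 bases after the annotated start, as 300 bases each. Capitals mark GC boxes, the motif GGGCGG known to be bound by Sp1, searched on both strands and so also as CCGCCC. Cdh22 lies on the minus strand at chr2:165234688-165234987 and Pcdh20 on the minus strand at chr14:88471347-88471646, and both were higher in SC. Cdh9 lies on the plus strand at chr15:16728665-16728964 and Cdh15 on the plus strand at chr8:122848124-122848423, and both were higher in DRG.
Cdh22: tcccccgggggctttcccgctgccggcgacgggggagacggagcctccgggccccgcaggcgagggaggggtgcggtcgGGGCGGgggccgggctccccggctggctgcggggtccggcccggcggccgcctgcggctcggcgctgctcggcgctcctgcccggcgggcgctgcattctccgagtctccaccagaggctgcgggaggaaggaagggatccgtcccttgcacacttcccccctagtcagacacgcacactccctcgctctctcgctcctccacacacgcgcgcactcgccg
Pcdh20: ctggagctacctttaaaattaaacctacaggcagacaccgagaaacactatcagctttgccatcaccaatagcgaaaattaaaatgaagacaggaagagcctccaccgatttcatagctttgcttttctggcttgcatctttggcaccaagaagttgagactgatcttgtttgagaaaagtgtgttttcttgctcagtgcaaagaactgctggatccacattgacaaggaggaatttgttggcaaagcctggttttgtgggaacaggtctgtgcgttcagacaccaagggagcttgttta
Cdh9: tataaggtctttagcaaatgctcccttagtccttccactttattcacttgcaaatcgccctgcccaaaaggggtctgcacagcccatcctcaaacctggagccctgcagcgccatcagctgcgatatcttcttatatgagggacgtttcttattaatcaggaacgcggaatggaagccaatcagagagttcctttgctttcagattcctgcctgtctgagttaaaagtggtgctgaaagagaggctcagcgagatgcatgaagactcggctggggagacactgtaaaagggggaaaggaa
Cdh15: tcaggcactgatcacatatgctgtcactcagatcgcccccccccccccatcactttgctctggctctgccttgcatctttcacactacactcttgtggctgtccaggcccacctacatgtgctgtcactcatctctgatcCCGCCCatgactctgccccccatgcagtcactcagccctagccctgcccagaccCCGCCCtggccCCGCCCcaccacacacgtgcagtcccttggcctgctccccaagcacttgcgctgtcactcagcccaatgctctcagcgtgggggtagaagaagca

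The 4 promoters differed within each direction. That of Cdh22 held 38 CG dinucleotides and 1 GC box, while that of Pcdh20, with the same direction, held 4 and 0. That of Cdh9 held 8 and 0, and that of Cdh15 held 7 CG dinucleotides and 3 GC boxes. The 26 member genes on chromosome 18 were left out of the search, among them Pcdhb9 and Pcdhb4, called higher in DRG. Entries existed for 20 of the 29 member genes outside chromosome 18, with 23 windows. Cdh1, Cdh11, Cdh19 and Cdh4, called higher in DRG, and Cdh13 and Pcdh11x, called higher in SC, had none. Neither motif below was searched for these genes. The genes higher in DRG that were searched were Cdh9, Cdh15 and Pcdh18, and Pcdh18 lost its call on both other scalings. A GC box was found for 2 of 3 genes higher in DRG, 6 of 13 higher in SC and 0 of 4 not called, and in 35.7% of all 32851 promoter windows. The 2 matches of Cdh6 overlap each other. The E2 box CAGGTG, searched on both strands and so also as its reverse complement CACCTG, is known to be bound by the Snail and Zeb repressors of cadherin genes. It was found for 0 of 3 genes higher in DRG, 3 of 13 higher in SC and 0 of 4 not called, and in 20.2% of all windows. The genes with it were Cdh7, at all 3 of its annotated starts, Pcdh7 and Pcdh15. The median number of CG dinucleotides was 8 in 3 windows of genes higher in DRG, 18 in 16 windows of genes higher in SC and 7 over all windows. A match of letters is a description and not a bound site.

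Clustered protocadherins named by a single gene were nearly all of the beta cluster on chromosome 18. Of 22 beta genes, 2 were called higher in DRG, on all 3 scalings, and 0 in SC, against 31.8% and 9.7% of all genes. Toward SC 0 also had an unadjusted p under 0.05 in limma. Before the array scaling 1 was called higher in SC. Of the genes, 17 of the 22 were not above the level of unexpressed genes on any array. The beta genes share much of their sequence, so a probe set may read several of them.

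Pcdhb9 had signals of 302, 314 and 277 in DRG, against 172, 144 and 164 in SC, of which 2 were above the level of unexpressed genes. It was 1.87-fold higher in DRG, with a log2 difference of 0.84 ± 0.12 (SE, limma adjusted p = 0.000473). Pcdhb4 had signals of 49.1, 74.3 and 50.9 in DRG, against 20.1, 22.5 and 2.79 in SC. It was called higher in DRG at 1.31 (limma adjusted p = 0.0129), but no array was above the level of unexpressed genes, no fold is given, and its other probe set was not called. Pcdhb17 was close in both tissues, with signals of 255, 240 and 251 in DRG, against 211, 209 and 204 in SC, and was not called at 0.24 (limma adjusted p = 0.118). Its direction turned to -0.11 before the array scaling (limma adjusted p = 0.464).

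The other 19 beta genes had mean signals of 12.8 to 157 in DRG and 8.34 to 127 in SC, and log2 differences of -0.68 to 0.51. Besides Pcdhb9 and Pcdhb17, only Pcdhb15, Pcdhb20 and Pcdhb21 had an array above the level of unexpressed genes. Pcdhgc4, the only gamma member, had signals of 54.2, 9.43 and 44.6 in DRG, against 83.4, 76.0 and 104 in SC, all under the level. Its difference was -1.11 ± 0.38 (SE, limma adjusted p = 0.0531), and it was called higher in SC under 6 of 16 alternatives, with limma adjusted p from 0.0164, before the array scaling, to 0.153.

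**Figure D4:**
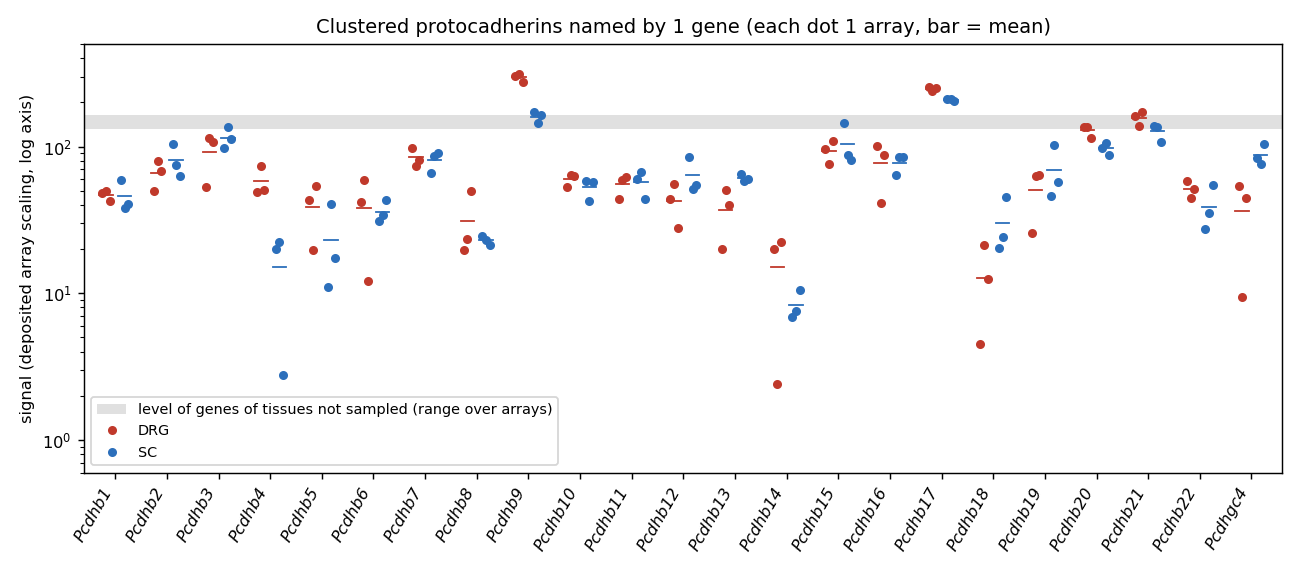
Signal on each array (vertical log axis) of the 23 clustered protocadherin genes named by a single gene, DRG in red and SC in blue, bars at the means of 3 arrays, with the level of unexpressed genes as a grey band. Most genes lie under the band in both tissues, and Pcdhb9 lies above it in DRG at 277 to 314.

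Where a gene had several probe sets, they did not contradict each other in their calls. Of 26 such genes, 7 had every probe set called in the same direction, 10 had some called in a single direction and 9 had none called. Calls in opposite directions were found for 0 genes. Differences that were not called could still lie on the other side, as for Pcdh18 (from -0.41 to 0.69) and Pcdh7 (from -0.54 to 0.26).

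Catenins and other junction partners were called mostly toward DRG. Of 12 measured genes, 8 were called higher in DRG, 6 of them on all 3 scalings, and 1 higher in SC, against 31.8% and 9.7% of all genes. Ctnnd2 was called toward SC on both other scalings. The list's median log2 difference was 0.81, against 0.48 with quantile normalization and 0.46 without the array scaling. Jup, which encodes plakoglobin, averaged 1655 ± 118 in DRG and 326 ± 66.6 in SC (SD, n = 3 each), 5.15-fold higher in DRG (limma adjusted p = 1.79e-06). Ctnna2, the neuronal alpha-catenin, was 3.31-fold higher in DRG and the actin linker Vcl 3.23-fold. Ctnnb1, which encodes beta-catenin, was 1.94-fold higher in DRG, with signals of 4620, 4828 and 4588 in DRG, against 2399, 2484 and 2344 in SC. Pkp4, an armadillo protein of the p120 family, was the gene higher in SC, 5.44-fold (limma adjusted p = 3.33e-08), with means of 510 ± 32.3 in DRG and 2772 ± 112 in SC (SD, n = 3 each).

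**Figure D5:**
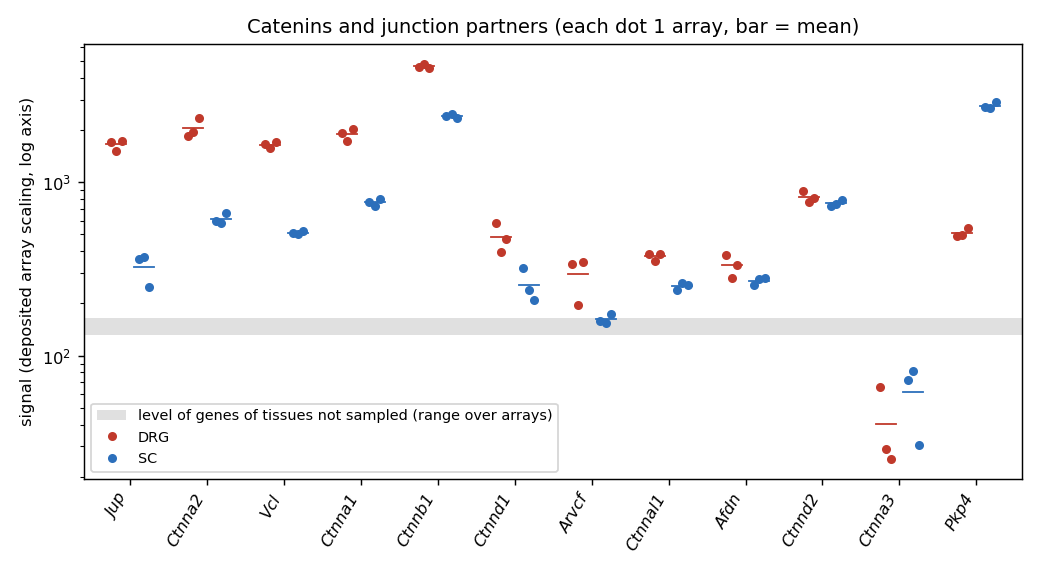
Signal on each array (vertical log axis) of the 12 catenins and junction partners, DRG in red and SC in blue, bars at the means of 3 arrays, ordered by their log2 difference. Jup, Ctnna2, Vcl and Ctnna1 lie higher in DRG without overlap and Pkp4 lies higher in SC, at a mean of 2772 against 510 in DRG.

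Other lists tied to cadherins were mixed. Of 5 nectins and related genes, 3 were higher in DRG, against 31.8% of all genes, with Nectin3 at 4.22-fold (limma adjusted p = 2.12e-06), Nectin2 at least 1.87-fold and Pvr, which lost its call on both other scalings, at 1.47-fold. Among 16 Fat, Dachsous, Celsr, calsyntenin and Cdhr genes, 2 had calls toward DRG and 3 toward SC, against 31.8% and 9.7% of all genes. The counts were 2 and 6 with quantile normalization, when Clstn1, Clstn2 and Celsr3 also had calls toward SC, and 1 and 7 without the array scaling, when Dchs1 joined them. Cdhr1, a cadherin of photoreceptors, averaged 567 ± 26.5 in DRG and 34.7 ± 19.7 in SC (SD, n = 3 each), at least 3.86-fold higher in DRG (limma adjusted p = 3.90e-06). Celsr1, under the level of unexpressed genes on all arrays, was called higher in DRG but not before the array scaling, while Clstn3, Celsr2 and Fat1 were higher in SC at -1.45, -1.33 and -0.57. Among 8 genes of cadherin cleavage, 4 had calls toward DRG and 1 toward SC, against 31.8% and 9.7% of all genes. They were led by Psen2 at 3.19-fold, Furin at 2.11-fold and Ncstn at 2.10-fold toward DRG and by Mmp9 toward SC, at least 1.49-fold. The fourth call toward DRG, of Adam10, was lost on both other scalings (limma adjusted p = 0.733 with quantile normalization and 0.12 without the array scaling). Of 6 desmosomal cadherins and 6 repressors of cadherin genes, 0 were called by limma, against 41.5% of all genes in either direction. The unadjusted p of limma was under 0.05 for 0 and 2 of them. None of the desmosomal genes was above the level of unexpressed genes. Of the 6 repressors, 4 were not above it in DRG and 4 in SC. Zeb1 and Zeb2 differed by 0.28 and 0.18 (limma adjusted p = 0.0541 and 0.372), and turned negative on both other scalings.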

How the data were processed

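Arrays were processed with MAS5 per the submitters' processing notes, whose version is not given in the sources used here. Deposited were linear ratios of a probe set's signal to its median over the 6 arrays, after division by an array factor, as read from the values: the median was 1 in 91.8% of probe sets. Signals were recovered with the step of 0.1 in which MAS5 writes them, for 45087 of 45101 probe sets, and a whole factor common to the arrays of a probe set may remain unseen. The array factors, 84.5 to 89.5 in DRG and 110.5 to 112.6 in SC, were kept. Before division by them, the mean signal without the extreme values was already 247.5 to 247.7 on all 6 arrays. Names came from the platform annotation, matched by Entrez identifier to GRCm38.p6, and no symbol changed. The difference between tissues was tested on log2(signal + 16), which makes differences of dim genes smaller, with limma 3.58.1 (lmFit, eBayes with trend, two-sided, Benjamini-Hochberg) in R 4.3.3, using Python 3.11.15 for recovery, tested on simulated data. The number of arrays limits the precision. A lower bound on a fold sets the brighter mean against the higher of the level of unexpressed genes and the dim signal. Values by array were given for called genes with the largest differences whose arrays did not overlap and that passed that level in at least 1 tissue, up to 12 a direction, and for 1 gene per subfamily, its highest by mean log2 signal. Cdh6, Pcdh7, Pcdhb4, Pcdh8, Pcdh1 and Cdh3, and Ctnnb1, Adam10, Clstn1, Clstn2, Celsr3, Dchs1, Ctnnd2, Zeb1 and Zeb2, are outside that rule and were added after their values were seen. The members and lists were chosen with earlier results of these data known. Probe sets naming several genes were not counted.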

Additional observations from a re-analysis of the deposited data

How the results depend on the processing

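Over the 17 alternatives, each changed alone, 8 to 10 probe sets were called higher in DRG and, with probe sets as features, 23 to 42 higher in SC. With 1 probe set per gene the calls toward SC were 16, and averaging each gene's probe sets 15, because fewer features were counted. Over all probe sets, calls toward DRG were 6717 after quantile normalization and 6013 before the authors' array scaling, where 8972 lay toward SC. With 1 probe set per gene these were 5954 and 1863, and with averaged probe sets 5023 and 2036. The members' median was -0.33 after quantile normalization, -0.55 before the array scaling, -0.37 with a pseudocount of 1, -0.155 with 64, -0.40 with the logarithm of the deposited ratio, -0.47 among probe sets above the median signal, and -0.054 by gene with either way of choosing a value. Leaving out single arrays gave -0.35 to -0.12. Of the named genes Cdh2 reversed, to -0.37 after quantile normalization, and the cause was not tested. Arrays were not treated as paired by replicate number. The correlations of same-numbered deviations were -0.00995, -0.021 and 0.00344, which cannot show whether such arrays shared mice. With the replicate block 10 members were called higher in DRG and 28 in SC.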

Other observations

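The alpha cluster of protocadherins was read by 6 probe sets that name several genes each and so belong to no single gene. Of these, 5 were called higher in DRG and 0 in SC, where 22.7% and 9.79% of all probe sets were called. The 6 name overlapping sets of 9 or 14 genes, so these counts are not of separate genes. Of the 5, 4 kept the call on all 3 scalings, as 12.1% of all probe sets did toward DRG. The remaining call was lost before the array scaling (limma adjusted p = 0.0556). Its probe set was under the level of unexpressed genes on all arrays, at 18.1 to 44.9 in DRG and 4.62 to 11.3 in SC. The probe set with the largest of these differences, which names 14 alpha genes, had signals of 2826, 2540 and 2591 in DRG, against 725, 656 and 581 in SC, with a log2 difference of 2.00 ± 0.09 (SE, limma adjusted p = 3.18e-07). The arrays of the tissues were well apart. Another that names the same 14 genes lay at 2113, 2373 and 2322 in DRG, against 814, 776 and 780 in SC, a difference of 1.50 ± 0.07 (SE, limma adjusted p = 4.04e-07). A further probe set for these genes lay at 375, 412 and 464 in DRG and at 159, 171 and 164 in SC, a difference of 1.25 (limma adjusted p = 2.20e-05). Which of the alpha genes gave these signals cannot be read from such probe sets.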
